A study of Mus musculus with 8 samples.

Results

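The nuclear genes of oxidative phosphorylation were followed in the embryonic mouse heart with and without Kat6a. Members were chosen by symbol alone: protein-coding genes whose symbols begin with Ndufa, Ndufb, Ndufc, Ndufs or Ndufv and a number, Sdha to Sdhd, and those beginning with Uqcr, Cox4 to Cox8 or Atp5, without Ndufa4l2. Of 27179 genes in the deposited count table, 85 are members, 38 of complex I, 4 of complex II, 8 of complex III, 18 of complex IV and 17 of complex V, with the complex read from the symbol. The members were counted in 3 hearts of Kat6a KO embryos, in which both copies of Kat6a, a histone acetyltransferase gene also known as Moz, are lost, and in 5 hearts of Kat6a WT embryos, which keep both copies, all at E10.5. The hearts are untreated and whole. The labels do not state the strain, the design of the allele, the litters or the sex of the embryos. Each library is 1 heart by the labels. Total counts were 19911803 to 30033097 in Kat6a KO hearts and 20817852 to 34539787 in Kat6a WT hearts, and the members took 1.61% to 1.76% of them in Kat6a KO hearts and 1.55% to 1.67% in Kat6a WT hearts.

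A few facts of the libraries bear on every value. Kat6a itself had 141, 133 and 137 CPM (counts relative to the scaled library total) in Kat6a KO hearts and 138, 144, 143, 141 and 156 CPM in Kat6a WT hearts, so the gene count does not check the genotype, and groups are as labelled. Xist RNA stood at 307 and 301 CPM of total counts in Kat6a WT replicates 4 and 5 and at no more than 0.372 in the other 6 hearts. All Kat6a KO hearts had RNA of the Y-linked Ddx3y, so the sexes are unequally spread over the groups. No 2 of the libraries agree within sampling noise: over 28 pairs, chi-square divided by its degrees of freedom was 7.90 to 28.8. These are bulk samples, in which fewer cells of a type and less RNA per cell cannot be told apart.

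Oxidative phosphorylation takes place in the inner membrane of mitochondria. Complexes I (NADH dehydrogenase) and II (succinate dehydrogenase) pass electrons to ubiquinone, complex III passes them to cytochrome c, and complex IV (cytochrome c oxidase) passes them to oxygen. Complexes I, III and IV pump protons across the membrane, and complex V, the ATP synthase, uses their return to make ATP. The adult heart depends on this route for most of its ATP, while the early embryonic heart relies more on glycolysis and its mitochondria mature as the chambers form. A core of subunits is encoded in the mitochondrial genome and the rest in the nucleus, where the transcription factors NRF1, GABP, YY1 and the estrogen-related receptors (ERR) are known regulators of these genes. The mitochondrially encoded subunits could not be set beside the nuclear ones, because all 13 are listed at 0 counts in all 8 hearts.

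Promoters are shown because NRF1 is the best known shared regulator of the group and its motif splits the members, whose fold changes are compared across that split below. RefSeq promoter windows, 250 bases before to 50 bases after an annotated start of the gene in GRCm38.p6 (mm10), were found for 69 of the 85 members. On either strand, the NRF1 motif GCGCANGCGC was in 17 of the 69 windows (24.6%), against 7.17% of 17492 protein-coding windows. It was in 7 of 33 windows of complex I, 2 of 3 of complex II, 1 of 5 of complex III, 1 of 13 of complex IV and 6 of 15 of complex V. The YY1 motif AAGATGGCG was in 7 windows (10.1%, against 2.14%), the ERR motif TCAAGGTCA in 2 (2.90%, against 0.377%), which were those of Atp5g3 and Sdhd, and the GABP motif ACCGGAAGT in 1, that of Ndufs3 (1.45%, against 1.59%). The hypoxia response core ACGTG was in 17 windows (24.6%, against 23.2%). All motifs were searched on both strands, matches of different motifs may overlap in part, and a match is only a run of letters. Below, 1 member of each complex with the NRF1 motif is given, 100 bases each, 5′ to 3′ on the gene's strand, with the motif, on whichever strand, in capitals.
Ndufs6, chr13:73328444-73328543, - strand: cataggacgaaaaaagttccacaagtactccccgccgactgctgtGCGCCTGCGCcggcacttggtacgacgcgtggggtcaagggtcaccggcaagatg
Sdhd, chr9:50603874-50603973, - strand: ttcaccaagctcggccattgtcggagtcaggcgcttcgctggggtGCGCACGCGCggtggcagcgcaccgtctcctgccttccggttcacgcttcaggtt
Uqcrc1, chr9:108936598-108936697, + strand: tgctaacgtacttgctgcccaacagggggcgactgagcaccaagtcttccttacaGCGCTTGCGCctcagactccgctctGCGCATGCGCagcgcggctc
Cox6a1, chr5:115349066-115349165, - strand: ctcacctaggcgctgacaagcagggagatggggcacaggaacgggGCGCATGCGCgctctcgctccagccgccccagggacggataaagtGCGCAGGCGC
Atp5g3, chr2:73911277-73911376, - strand: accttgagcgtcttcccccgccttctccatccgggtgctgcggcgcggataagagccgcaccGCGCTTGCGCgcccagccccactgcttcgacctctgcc
The Atp5g3 stretch lies inside the gene's span (chromosome 2, 73908447 to 73912464) and not at its outer start. In the stretches above, Uqcrc1 and Cox6a1 each hold the motif in 2 places and the others in 1. Beside them stands the whole 300-base window of Ndufb11, a complex I gene that rose in Kat6a KO hearts (below), which holds no NRF1 motif and lies within the span of its neighbour Rbm10 (chromosome X, 20617357 to 20650889).
Ndufb11, chrX:20617570-20617869, - strand: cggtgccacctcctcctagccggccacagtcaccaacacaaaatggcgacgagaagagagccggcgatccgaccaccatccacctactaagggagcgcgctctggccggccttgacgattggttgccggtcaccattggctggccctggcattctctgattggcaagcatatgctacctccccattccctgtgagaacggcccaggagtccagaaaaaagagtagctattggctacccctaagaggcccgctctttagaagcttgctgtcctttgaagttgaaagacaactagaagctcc
Cox4i2, the other member that rose, is named without sequence.

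The levels of the members spanned a wide range. On the scale of CPM per kilobase of gene length, averaged over all 8 hearts, the median member that passed the count filter stood at 104, against 8.73 for all genes tested. The catalytic beta subunit of ATP synthase, Atp5b, was highest, at 1832 ± 52.3 CPM per kilobase in Kat6a KO hearts and 1734 ± 50.5 in Kat6a WT hearts (SD, n = 3 and 5, as for all means below). The alpha subunit Atp5a1 followed at 1132 over all hearts, then Atp5g3, which encodes the membrane ring's subunit c, at 694, Cox4i1, the common form of a complex IV regulatory subunit, at 529.8, and Atp5o, of the stalk, at 483. In the other complexes the highest were Uqcrc1, a core protein of complex III, at 311, Ndufb8, an accessory subunit of complex I, at 276, and the iron-sulfur subunit Sdhb of complex II at 266. Median levels per kilobase were 82.8 in complex I, 189 in complex II, 257 in complex III, 94.1 in complex IV and 205 in complex V. At the low end of the tested members were Cox8b at 2.37, Atp5l at 3.36, Cox6b2 at 4.24, Atp5g2 at 4.52, Cox4i2 at 7.65 and Ndufb4 at 8.44. Cox8c, Cox7b2 and Uqcr11 had at most 0.0900 CPM in any heart and were not tested. Uqcr11 was thus far below the tested members of complex III, which stood at 53.0 to 311 CPM per kilobase. Whether its count reflects the RNA present was not tested.

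Some of the low levels concern genes that have close copies elsewhere in the genome. For 83 members the share of 50-base stretches of the transcript (GENCODE M21) that also occur in a transcript of another locus was counted. It was 0 for 49 members, above 0 for 34 and at least 30% for 12. Those 12 had a median of 39.0 CPM per kilobase (3.36 to 83.0), against 132 for the members with a smaller share and 121 for those with none. Atp5l, a small membrane subunit of ATP synthase, shared 68.5% of its stretches, and the subunit c genes Atp5g1 and Atp5g2 56.2% and 46.4%, while their highly expressed sister Atp5g3 shared 0. Ndufs5, a complex I accessory subunit, shared 41.2% and had 4.95 ± 0.640 CPM in Kat6a KO hearts and 5.98 ± 0.667 CPM in Kat6a WT hearts, while its pseudogene Ndufs5-ps had 39.5 ± 0.963 and 36.0 ± 2.61 CPM. The labels do not say how reads with several matches were counted, so levels of these 12 are uncertain, and the part of shared sequence in them was not tested.

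**Figure D1:**
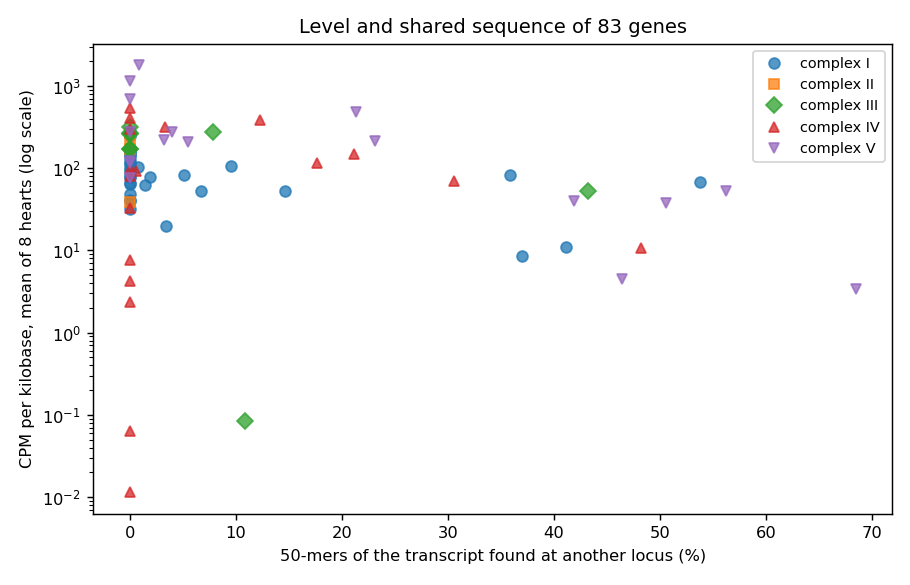
Level of 83 oxidative phosphorylation genes (CPM per kilobase, mean of the 8 hearts, log scale) against the percentage of 50-base stretches of the transcript found at another locus, coloured by complex. The 12 genes at or beyond 30% lie between 3.36 and 83.0 CPM per kilobase, while genes with little or no shared sequence reach 1771.

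The comparison of Kat6a KO with Kat6a WT hearts asks what the loss of Kat6a changes in these genes, and it found few that moved past the test. Of the 85 members 82 passed the count filter and were tested with all 15086 genes that did (edgeR quasi-likelihood test, Benjamini-Hochberg adjustment over all genes, threshold 0.05). Cox4i2 and Ndufb11 rose, 2 of 82 (2.44%), against 1.44% of all tested genes, a share near the background. None fell, against 1.23% of all tested genes; none was lower at an unadjusted p under 0.05 either, and DESeq2 and limma voom called none lower. Changes were small: 79 of 82 members had a fitted change within 1.25-fold in either direction. In the simulated counts 42% of changes of 1.25-fold and 88% of 1.5-fold were recovered. The genes changed there were drawn from all tested genes above a low level, and members had smaller errors (median SE 0.071, against 0.089). Changes of 1.25-fold and less may thus go uncalled with 3 and 5 hearts, but how often among members was not measured.

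The members nevertheless leaned to one side. The log2 fold change (Kat6a KO over Kat6a WT) was above 0 for 68 of 82 members (82.9%), against 49.9% of all tested genes, and its median was 0.08, against -0.0001 for all tested genes. By complex the fold change was above 0 for 32 of 38 members of complex I (median 0.09), 2 of 4 of complex II (0.04), 5 of 7 of complex III (0.07), 15 of 16 of complex IV (0.13) and 14 of 17 of complex V (0.04). At an unadjusted p under 0.05, 15 of 82 members were higher (18.3%), against 7.43% of all tested genes, and 0 were lower, against 6.81%. Of the 15, 7 were of complex I, 6 of complex IV and 1 each of complexes III and V. In 5 members (6.10%) every Kat6a KO heart was above every Kat6a WT heart, against 4.77% of all tested genes, and in 0 every Kat6a KO heart was below, against 4.81%. The members share the same 8 hearts, so these counts describe them and are not independent observations.

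**Figure D2:**
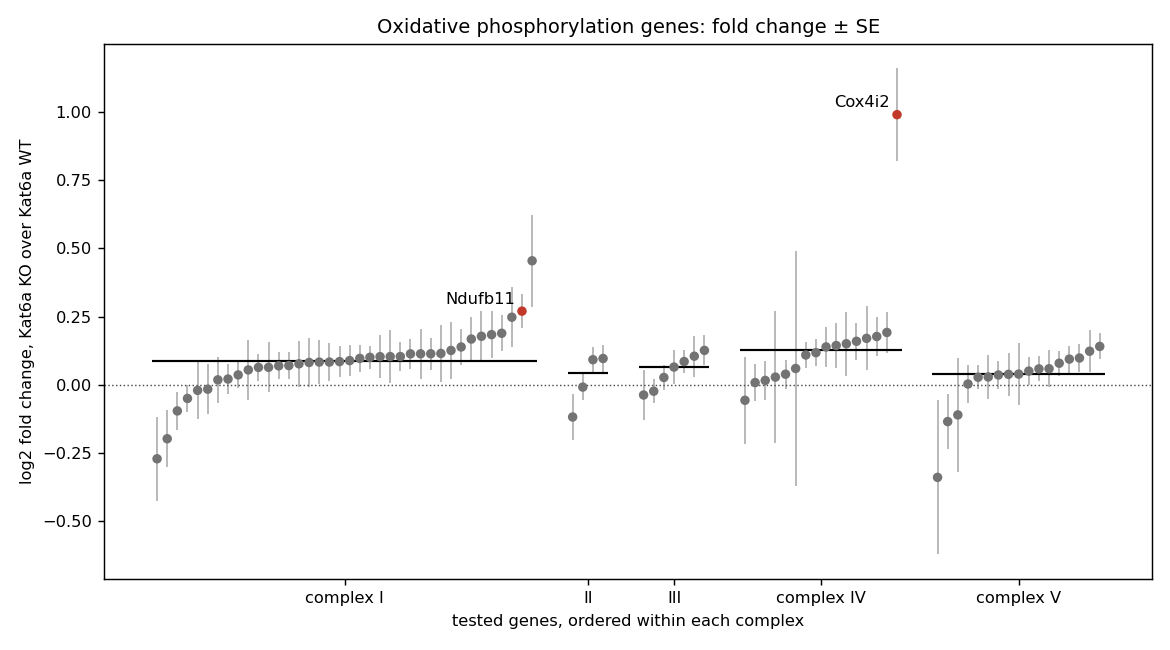
Log2 fold change (Kat6a KO over Kat6a WT) of the 82 tested genes with its standard error, ordered within complexes I to V, with a line at each complex's median. Cox4i2 (0.99) and Ndufb11 (0.27), in red, passed the test, and most others sit slightly above 0.

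The lean did not separate the hearts by genotype. Taking each member's log2 CPM minus its mean over the 8 hearts, the median member stood at 0.08, -0.04 and 0.11 in Kat6a KO replicates 1 to 3, and at 0.05, -0.01, 0.004, -0.13 and -0.07 in Kat6a WT replicates 1 to 5. Kat6a KO replicate 2 lay below Kat6a WT replicates 1, 2 and 3, and the groups overlap. In Kat6a KO replicate 2, 69.5% of the members were below their own mean, against 6.10% in Kat6a KO replicate 3 and 90.2% in Kat6a WT replicate 4. The SD within groups was 0.0718, close to the size of the members' median fold change. Kat6a WT replicates 4 and 5, the lowest, are the hearts with Xist RNA: without both, the members' median fold change was 0.04, 56 of 82 were above 0 and Cox4i2 alone passed. Without Kat6a KO replicate 3 the median was 0.04 and 60 of 82 were above 0.

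Short genes in general moved with the same hearts. All genes of at most 600 bases with an average log2 CPM over 3 numbered 202, the 32 members of that length included. Their median deviation was 0.07, -0.04 and 0.07 in Kat6a KO hearts and 0.13, -0.06, 0.01, -0.11 and -0.05 in Kat6a WT hearts. Of them, 65.8% had a fold change above 0. The median log2 fold change of these short genes was 0.05, against 0.02 for genes of over 600 to 1000 bases, -0.004 for over 1000 to 2000 and -0.006 for longer ones. Members of the same 4 length classes had medians of 0.08 (32 genes), 0.10 (19), 0.09 (19) and 0.08 (4). Longer members thus had medians as high as short ones, and the part of gene length in the lean was not tested beyond these values.

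**Figure D3:**
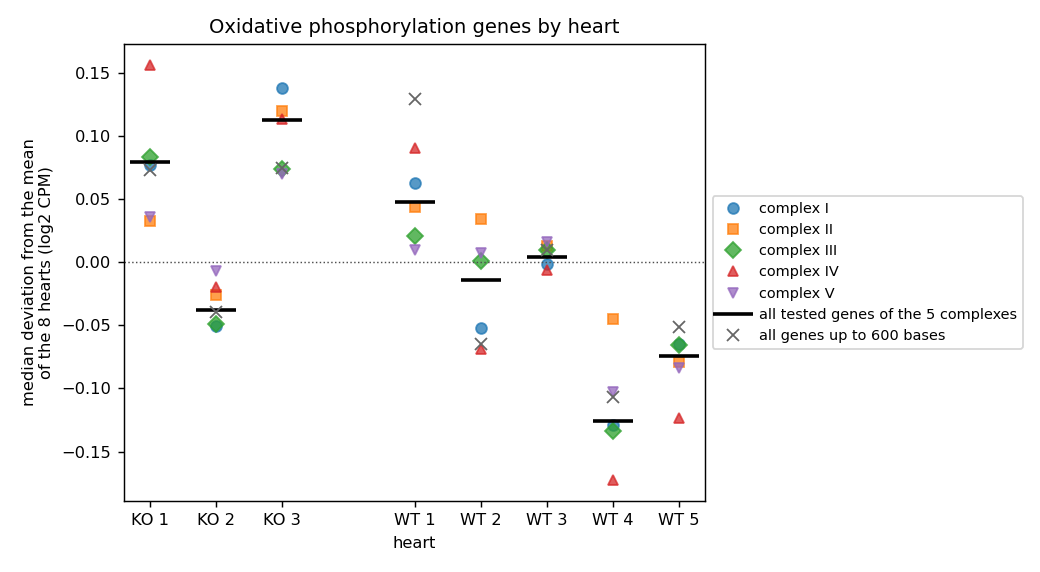
Median deviation of log2 CPM from the mean of the 8 hearts, for each complex (symbols), for all tested members (bars) and for all genes up to 600 bases (crosses), by heart. The bar of Kat6a KO replicate 2 lies under 0 and those of Kat6a WT replicates 4 and 5 are lowest, so the genotypes overlap.

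In complex I, Ndufb11 was the only member to pass. Ndufb11 (Entrez gene 104130; chromosome X, 20615326 to 20617619), an accessory subunit of the membrane arm, had 97.5, 90.9 and 115 CPM in Kat6a KO hearts and 87.2, 80.2, 86.2, 82.2 and 83.9 CPM in Kat6a WT hearts. All Kat6a KO hearts were above all Kat6a WT hearts, with replicate 3 farthest out. It rose by 0.27 ± 0.06 (log2, SE; edgeR adjusted p = 0.0219). The call was lost without Kat6a KO replicate 3 (0.16, adjusted p = 0.225), without Kat6a KO replicate 1 (0.30, 0.0650) and without Kat6a WT replicate 3, 4 or 5 (0.28, 0.26 and 0.27, with adjusted p of 0.0503, 0.0503 and 0.0524), as well as without both hearts with Xist RNA (0.26, 0.116) and in limma voom (0.25, 0.0594). The gene is X-linked, and the Kat6a KO hearts and Kat6a WT replicates 1 to 3 showed no Xist RNA above 0.372 CPM. Its annotated span shares 263 bases with Rbm10, whose own log2 fold change was -0.03 ± 0.06. Of the 50-base stretches of Ndufb11, 9.55% also occur at 1 other locus, a pseudogene, while 0% of its 100-base stretches do. The part of that pseudogene in the count of Ndufb11 was not tested.

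Other complex I genes named by rule stayed short of the threshold. Ndufs4, a subunit of the peripheral arm whose loss causes Leigh-like disease in mice, had 72.5, 59.2 and 72.7 CPM in Kat6a KO hearts and 61.0, 62.2, 59.3, 56.4 and 60.4 CPM in Kat6a WT hearts (0.19 ± 0.07, adjusted p = 0.156). Kat6a KO replicates 1 and 3 were above every Kat6a WT heart and replicate 2 was within them; without replicate 2 the difference was 0.27 and passed (adjusted p = 0.0234). Ndufb4, an accessory subunit, had 4.45, 4.22 and 5.17 CPM in Kat6a KO hearts and 3.52, 3.45, 3.57, 2.87 and 3.39 CPM in Kat6a WT hearts (0.45 ± 0.17, adjusted p = 0.195). Its groups do not overlap, and it shares 37.0% of its 50-base stretches with other loci. The members of like name, Ndufb4b (0.12 ± 0.10, adjusted p = 0.680) and Ndufb4c (0.25 ± 0.11, adjusted p = 0.307), had no transcript for that comparison. Any sharing of reads between them and Ndufb4 was not tested. Ndufs1, the largest subunit, which carries iron-sulfur clusters, had 474, 469 and 469 CPM in Kat6a KO hearts and 436, 455, 429, 442 and 433 CPM in Kat6a WT hearts. The groups were apart but close (0.10 ± 0.04, adjusted p = 0.261). Ndufb8 had 186, 168 and 204 CPM in Kat6a KO hearts and 173, 163, 183, 162 and 178 CPM in Kat6a WT hearts, with overlap (0.11 ± 0.06, adjusted p = 0.404). Ndufa4, which carries a complex I name but is now placed in complex IV, had 0.11 ± 0.09 (adjusted p = 0.656). Ndufs5 had the lowest value of the complex, -0.27 ± 0.15 (adjusted p = 0.452).

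**Figure D4:**
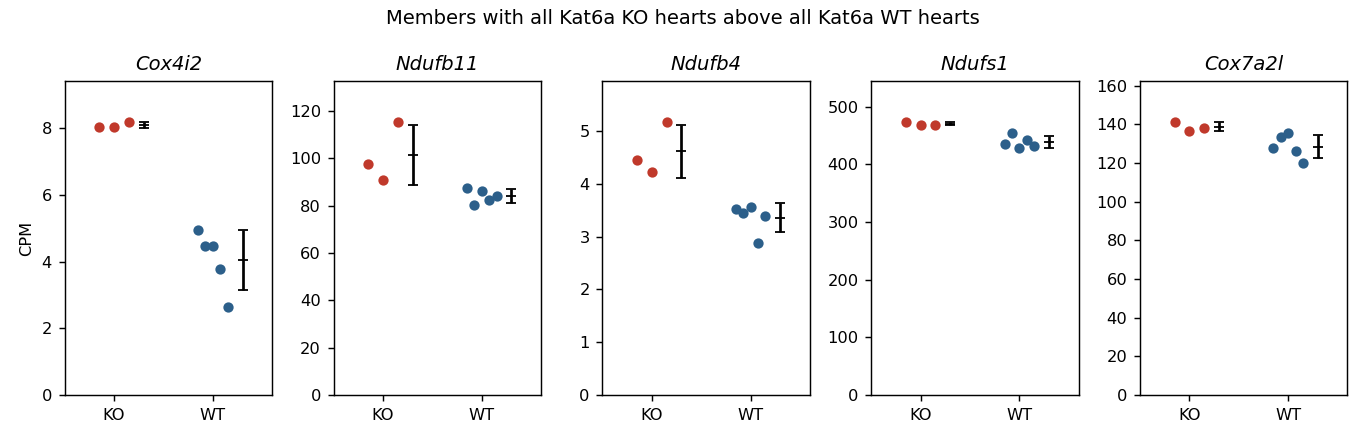
CPM in each heart of the 5 genes in which all Kat6a KO hearts (red) lie above all Kat6a WT hearts (blue), with mean ± SD beside the points and axes from 0. For Cox4i2 the groups are 8.03 to 8.19 and 2.63 to 4.94 CPM, while for the other 4 the gap is narrow.

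Complexes II and III held no gene past the test. In complex II, which also works in the citric acid cycle, Sdhb had 295, 286 and 313 CPM in Kat6a KO hearts and 295, 279, 292, 266 and 263 CPM in Kat6a WT hearts (0.10 ± 0.05, adjusted p = 0.390). The membrane anchor Sdhc had 0.09 ± 0.05 (adjusted p = 0.402). The second anchor, Sdhd, had 42.4, 44.0 and 56.4 CPM in Kat6a KO hearts and 51.6, 51.8, 48.2, 49.9 and 56.5 CPM in Kat6a WT hearts. Kat6a KO replicates 1 and 2 were below all Kat6a WT hearts and replicate 3 was among the highest (-0.12 ± 0.08, adjusted p = 0.579). In complex III, the hinge protein gene Uqcrh had 171, 145 and 157 CPM in Kat6a KO hearts and 149.9, 145, 153, 136 and 138 CPM in Kat6a WT hearts (0.13 ± 0.06, adjusted p = 0.295). The Rieske iron-sulfur protein gene Uqcrfs1 had 0.09 ± 0.04 (adjusted p = 0.390), the small subunit gene Uqcrq 0.11 ± 0.08 (0.590), Uqcrc1 -0.02 ± 0.04 (0.875) and Uqcrb, a ubiquinone-binding subunit, -0.04 ± 0.09 (0.912).

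Complex IV held the largest change. Cox4i2 (Entrez gene 84682; chromosome 2, 152753916 to 152765039) encodes a restricted form of subunit 4, known from lung and from cells that sense low oxygen, and takes the place of the common form Cox4i1. It had 8.03, 8.03 and 8.19 CPM in Kat6a KO hearts and 4.94, 4.45, 4.47, 3.78 and 2.63 CPM in Kat6a WT hearts. The Kat6a KO hearts were nearly equal and all above the Kat6a WT hearts, whose lowest value was that of replicate 5. Cox4i2 rose by 0.99 ± 0.17 (log2, SE; edgeR adjusted p = 0.00178), and it passed in all 17 alternatives (0.81 to 1.07). Its span shares 6308 bases with Bcl2l1, whose log2 fold change was -0.03 ± 0.06, and no 50-base stretch of it was found at another locus. Ndufa4l2, which is induced by low oxygen and lies outside the rule, had 6.76, 4.98 and 5.94 CPM in Kat6a KO hearts and 2.20, 1.96, 1.25, 2.18 and 1.25 CPM in Kat6a WT hearts (1.75 ± 0.22, edgeR adjusted p = 8.25e-05). The part of oxygen supply in the values of Cox4i2 and Ndufa4l2 was not tested.

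Several abundant complex IV genes leaned upward without passing, while others hardly moved. Cox6a1, at 385 CPM per kilobase over all hearts, had 0.02 ± 0.07 (edgeR adjusted p = 0.954). Cox5a, at 316, had 0.04 ± 0.05 (edgeR adjusted p = 0.816). Cox4i1 had 389.9, 347 and 398 CPM in Kat6a KO hearts and 357, 347, 359.8, 325 and 354 CPM in Kat6a WT hearts (0.12 ± 0.05, adjusted p = 0.278). Cox7b, an X-linked small subunit, had 102, 98.0 and 99.4 CPM in Kat6a KO hearts and 103, 85.0, 89.4, 76.8 and 82.5 CPM in Kat6a WT hearts (0.19 ± 0.07, adjusted p = 0.237). Cox6c, another small subunit, had 82.4, 77.0 and 81.5 CPM in Kat6a KO hearts and 82.0, 73.6, 71.0, 64.2 and 64.2 CPM in Kat6a WT hearts (0.18 ± 0.07, adjusted p = 0.240). In both genes Kat6a WT replicate 1 was as high as the Kat6a KO hearts and Kat6a WT replicates 4 and 5 were low; without Kat6a WT replicate 1, Cox7b (0.26, adjusted p = 0.0108), Cox6c (0.23, 0.0357) and the complex I gene Ndufb6 passed, and 5 members in all. Cox7a2l, which joins complexes III and IV into supercomplexes, had 141, 137 and 138 CPM in Kat6a KO hearts and 128, 133, 135, 126 and 119.8 CPM in Kat6a WT hearts. Its groups were just apart (0.11 ± 0.05, adjusted p = 0.301).

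Several complex IV subunits exist as a muscle or restricted form and a common form, and the ratio of the forms within a heart does not depend on library scaling. Of 5 pairs, the ratio Cox4i2 to Cox4i1 differed most. Its log2 value was -5.60, -5.43 and -5.60 in Kat6a KO hearts and -6.17, -6.28, -6.33, -6.42 and -7.06 in Kat6a WT hearts, which corresponds to 2.15% and 1.14% of the Cox4i1 counts. The groups do not overlap, and the difference of 0.91 gave the smallest p that 3 against 5 hearts allow, 0.0179 (exact permutation test, two-sided), or 0.0893 after Benjamini-Hochberg adjustment over the 5 pairs. Cox6a2, the heart and skeletal muscle form, stood at 32.8% of Cox6a1 in Kat6a KO hearts and 29.6% in Kat6a WT hearts (log2 difference 0.15, exact p = 0.125, adjusted 0.3125). For Cox6b2 (testis form) to Cox6b1, Cox7a1 (muscle form) to Cox7a2 and Cox8b (muscle form) to Cox8a the log2 differences were -0.08, -0.008 and -0.008 (exact p = 0.839, 0.964 and 0.982). Cox7a1 had 20.0% of the counts of Cox7a2 in Kat6a KO hearts and 20.1% in Kat6a WT hearts, while Cox8b had 0.358% and 0.360% of those of Cox8a. Cox8b, at 0.862 ± 0.306 CPM in Kat6a KO hearts and 0.857 ± 0.444 in Kat6a WT hearts, is too low for a small change to be detectable.

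**Figure D5:**
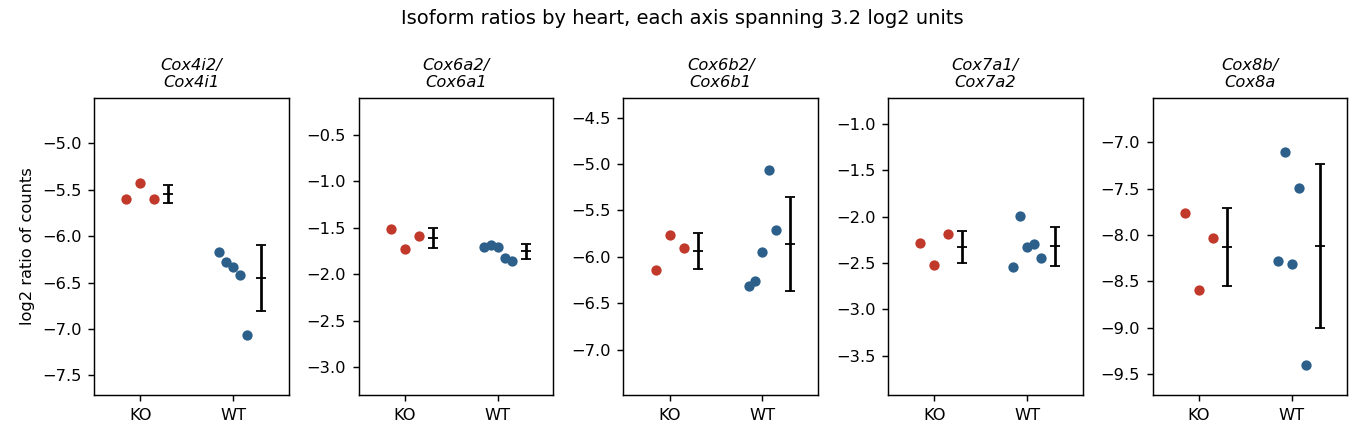
Log2 ratio of counts of the restricted to the common form of 5 complex IV subunits in each heart, Kat6a KO (red) left of Kat6a WT (blue), with mean ± SD. Each axis spans the same number of log2 units, and only Cox4i2 to Cox4i1 shows groups that do not overlap.

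In complex V no gene passed. Atp5j, coupling factor 6 of the stalk, had the smallest p, with 176, 156 and 163 CPM in Kat6a KO hearts and 156, 148, 150.0, 146 and 148 CPM in Kat6a WT hearts (0.14 ± 0.05, adjusted p = 0.147). Kat6a KO replicate 2 and Kat6a WT replicate 1 met at 156 CPM. Its span shares 967 bases with Gabpa, a subunit gene of GABP, which had a log2 fold change of 0.04 ± 0.05. Atp5b had 3468, 3334 and 3526 CPM in Kat6a KO hearts and 3333, 3294, 3341, 3119 and 3206 CPM in Kat6a WT hearts, with overlap (0.08 ± 0.05, adjusted p = 0.468). The gamma subunit gene Atp5c1 had 0.09 ± 0.05 (adjusted p = 0.402) and Atp5o 0.10 ± 0.05 (0.417). Atp5l had the lowest value of all members, -0.34 ± 0.28, at 1.48 ± 0.250 CPM in Kat6a KO hearts and 1.87 ± 0.523 CPM in Kat6a WT hearts (adjusted p = 0.655).

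The promoters shown above can be set beside the fold changes. The 17 tested members with the motif had a median log2 fold change of 0.02 with 9 above 0, and the 50 tested members whose window lacks it had a median of 0.09 with 45 above 0. The 15 without a window had a median of 0.10 with 14 above 0. The difference between these groups was not tested. Among the members printed, Ndufs6 had 0.05 ± 0.11, Sdhd -0.12 ± 0.08, Uqcrc1 -0.02 ± 0.04, Cox6a1 0.02 ± 0.07 and Atp5g3 0.04 ± 0.05. The members with the motif ranged from -0.27 for Ndufs5 to 0.45 for Ndufb4, and those whose window lacks it from -0.34 for Atp5l to 0.27 for Ndufb11, so the ranges overlap. Ndufs5, Ndufb4 and Atp5l are among the 12 members that share at least 30% of their 50-base stretches with other loci. Those 12 had a median log2 fold change of 0.006, against 0.08 for members that share none. The part of shared sequence in the motif split was not tested.

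The genes around the pathway showed 0 calls in either direction, against 1.44% of all tested genes that rose and 1.23% that fell. At such shares, few calls would be seen in lists of 4 to 34 genes. Of the 4 subunits and carriers outside the rule (the acyl carrier Ndufab1, cytochrome c1 Cyc1, cytochrome c Cycs and Dmac2l) 0 rose and 0 fell, with a median log2 fold change of -0.01. The same held for 14 complex I assembly factors (median 0.06), 34 assembly factors of complexes II to V (0.05), 19 genes of the citric acid cycle and pyruvate entry (0.03), 23 regulators of mitochondrial biogenesis (0.03) and 22 genes of the outer membrane and protein import (0.02). Genes of smallest p in their lists were Ndufab1 (-0.14 ± 0.12), Acad9, an assembly factor of complex I (0.14 ± 0.05), Surf1, an assembly factor of complex IV (0.21 ± 0.08), Ppard, a nuclear receptor (0.20 ± 0.07), and Hspd1, the mitochondrial chaperonin (-0.10 ± 0.05), with edgeR adjusted p of 0.635, 0.209, 0.199, 0.197 and 0.438. At an unadjusted p under 0.05, 5 genes of these lists were higher, namely Acad9, Surf1, Ppard, the complex I assembly factor Ndufaf7 (0.16 ± 0.07) and the coactivator gene Ppargc1a (0.12 ± 0.06). At the same threshold 2 were lower, the ERR gene Esrra (-0.13 ± 0.05) and the nuclear receptor gene Rxra (-0.15 ± 0.06). Both shares are below those of all tested genes, 7.43% higher and 6.81% lower. Most of these lists also leaned upward. The log2 fold change was above 0 for 8 of 14 complex I assembly factors and 23 of 34 of complexes II to V. It was above 0 for 15 of 19 citric acid cycle and pyruvate genes, 15 of 23 regulators and 14 of 22 import genes. For the subunits and carriers outside the rule it was 1 of 4, and among all tested genes 49.9%.

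The cell types of the heart set the background for these levels. Cardiomyocyte markers, which define the labelled tissue, summed to 29426 to 32987 CPM in Kat6a KO hearts and 28339 to 30171 CPM in Kat6a WT hearts, with a median log2 fold change of 0.10, and 1 of 7, Ryr2, rose (0.25 ± 0.06, adjusted p = 0.0187), though not without Kat6a KO replicate 1 (0.24, adjusted p = 0.122), Kat6a KO replicate 2 (0.22, 0.123) or Kat6a WT replicate 3 (0.25, 0.0615). Of the endothelial and endocardial markers 2 of 7 rose and 1 fell, and of the epicardial markers 1 of 6 rose and 4 fell. Of the cushion markers 0 of 4 rose and 2 fell, and of the macrophage markers 5 of 6 rose. Among all tested genes 1.44% rose and 1.23% fell. Macrophage markers summed to 31.6 to 39.5 CPM in Kat6a KO hearts and 11.2 to 21.7 CPM in Kat6a WT hearts. Red cell markers had 0 of 9 past the test and summed to 5614 to 9533 CPM in Kat6a KO hearts and 4013 to 16598 CPM in Kat6a WT hearts. Of the liver markers 2 of 4 were tested and 0 passed (sums of 1.12 to 14.3 and 0.338 to 1.45 CPM), with Alb and Apoa1 under the filter. The list of immediate early and heat shock genes, markers of tissue handling, had 0 of 10 past the test, 8 above 0 and a median of 0.37 (sums of 280 to 465 CPM in Kat6a KO hearts and 259 to 307 CPM in Kat6a WT hearts). No marker of these lists was at 0 in all hearts. The part of cell makeup and of handling in the members' lean was not tested.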

How the data were processed

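RNA was sequenced from 3 Kat6a KO and 5 Kat6a WT hearts, grouped by the genotype in the labels. Total RNA was isolated with a column kit and libraries were made with a stranded kit, per the labels' protocols. The authors deposited unnormalised read counts for each Entrez gene, with a gene length, made with bcl2fastq and featureCounts on mm10, per the submitters' processing notes; for versions, aligner and strand setting, the sources used here give nothing. The single-heart files hold the same counts as the table for all 8 hearts. Without a known strand setting, overlapping genes may share counts; 28 members overlap another RefSeq gene, 16 of them a tested one. RefSeq (GRCm38.p6) gave a symbol to 25275 IDs; the 1904 without one held 1.05% of counts. Of 91 symbols matching the rule, 5 were not protein-coding and Ndufa4l2 was left out.

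Tools were Python 3.11.15 and, in R 4.3.3, DESeq2 1.42.0, limma 3.58.1 and edgeR 4.0.16. The test was edgeR's robust quasi-likelihood test with TMM scaling and filterByExpr, with no covariate, and Benjamini-Hochberg adjustment over 15086 genes; SE is the size of the log2 fold change divided by the root of the F statistic. The biological coefficient of variation was 9.10%. On simulated counts for 14938 genes, 42%, 88%, 96% and 100% of changes of 1.25, 1.5, 2 and 4-fold were recovered, and 15 of 178 calls (8.43%) were false. Since nothing states separate litters, p-values reflect only how these hearts vary. The ratios of isoforms used 0.5 added to each count. Alternatives were DESeq2, limma voom, other scalings and filters, a replicate block, leaving out hearts, and edgeR without its robust option.

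Members and lists were chosen with earlier results of these data known. Length classes, the 50-base comparison and the promoter motifs were added after the values were seen. Genes named were, by rule, members past the threshold, in each complex the 3 of smallest p, the largest change and the highest and lowest level, isoform pairs, and from each other list those past the threshold or the smallest p. Of the genes this selects, 1 is not reported. Outside that rule, Ndufs1, Cox7a2l, Ndufa4, Ndufb4b, Ndufb4c, Ndufs5, Ndufb6, Ndufs6, Atp5g3 and neighbouring genes were named after their values were seen. So were Ndufa4l2, Ndufs5-ps, Atp5a1, Atp5g1, Atp5g2, Cox5a, Ndufaf7, Ppargc1a, Esrra and Rxra, and the untested Cox8c, Cox7b2 and Uqcr11. Coa1 of the complex I assembly list was not analysed here, and Sco2 and Pet117 were under the filter.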

Additional observations from a re-analysis of the deposited data

Results flagged for a closer look

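In 4 of the 55 named genes 1 Kat6a WT heart stood apart from the other 4 by Dixon's criterion, which chance meets in about 1 of 20 groups. Ndufb4 had 2.87 CPM in Kat6a WT replicate 4, against 3.39 to 3.57 CPM in the others. Pecam1, an endothelial marker, had 149.6 CPM in Kat6a WT replicate 2, against 136 to 139 CPM. Csf1r, a macrophage receptor, had 7.33 CPM in Kat6a WT replicate 2, against 2.84 to 4.06 CPM. Afp, a liver and yolk sac gene, had 0.566 CPM in Kat6a WT replicate 5, against 0 to 0.0677 CPM.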

How the results depend on the processing

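Cox4i2 passed under all 17 alternatives; Ndufb11 did not, and its values stand in the report. Oxidative phosphorylation genes past the threshold numbered 2, and 1 with limma voom, with the replicate block and without Kat6a WT replicates 4 and 5; leaving out 1 heart at a time gave 1 to 5. All tested genes past it numbered 403, and 181 with the block, 580 with DESeq2 and 281 without Kat6a WT replicates 4 and 5; leaving out 1 heart at a time gave 194 to 496. The members' median log2 fold change ranged from 0.04 to 0.12 and the number above 0 from 60 to 72 when 1 heart was left out. With the replicate block they were 0.04 and 55, and Ndufb11 lost its call (adjusted p = 0.106). Same-numbered hearts did not deviate together (r = 0.07, -0.12 and -0.05), and the Kat6a KO hearts 1 to 3 correlated best with Kat6a WT numbers 2, 4 and 2, so the block pairs hearts by number only. The number above 0 without Kat6a WT replicates 4 and 5 was 56, against 68 with all hearts, so members beyond the named ones changed sign too. Among the named genes and ratios, none of them past the threshold, signs changed for Cox8b (-0.11), Cox6a1 (-0.0087) and Klf1 (0.19) with the block, and Cox8b (-0.13), Cox6a1 (-0.0079), Klf1 (0.15) and the Cox6b2 to Cox6b1 ratio (0.23) without Kat6a WT replicates 4 and 5. Leaving out 1 heart, Cox8b ranged from -0.24 to 0.33, Cox6a1 from -0.030 to 0.096, Cox6b2 from -0.057 to 0.22 and Uqcrb from -0.0877 to 0.0453. The Cox6b2 ratio ranged from -0.19 to 0.12, Cox7a1 to Cox7a2 from -0.080 to 0.087 and Cox8b to Cox8a from -0.33 to 0.24; the causes were not tested. Among other named genes, single hearts left out ended calls of Ryr2, Pecam1, Tie1, Tcf21 and Csf1r (highest adjusted p of 0.123, 0.105, 0.188, 0.120 and 0.152). The replicate block ended those of Ryr2 (0.0552), Pecam1 (0.157), Tie1 (0.179), Tcf21 (0.240) and Upk3b (0.170). Counts of members near 1 CPM, such as Cox8b, are limited by counting error; p-values under the smaller designs cannot show stability.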
